A study of Homo sapiens with 12 samples.

Results

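The glycolysis and hypoxia response genes described here are 34 genes, 22 that carry glucose into the cell and break it down to lactate and 12 that are known targets of the hypoxia response. They were chosen by name, as every probe whose target symbol, or whose older alias under the same Entrez gene identifier, is one of the 34 (PKM2 for PKM, JMJD1A for KDM3A). The rule found all 34 among 30505 genes on the array, with 61 of 47227 probes. Probes detected (p under 0.01) on each of the 2 arrays of any group were used, and 32 members among 15650 genes could then be tested. PDK1, which restrains pyruvate entry into mitochondria, and CA9, a carbonic anhydrase of the cell surface, were detected on 0 of 12 arrays, with raw signals of 73.6 to 93.9 and 61.5 to 96.4, and were not tested. By the probe used, 30 members were detected on all 12 arrays, EGLN3 on 11 and MXI1 on 10.

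Glycolysis turns glucose into pyruvate through a chain of enzymes in the cytosol, and the pyruvate is either oxidised in mitochondria or reduced to lactate. When oxygen is low, prolyl hydroxylases of the EGLN family no longer mark the hypoxia-inducible factors HIF-1α and HIF-2α for degradation, and these factors pair with ARNT or ARNT2 and bind a short DNA element beside many glycolytic genes and others such as VEGFA, NDRG1 and BNIP3. Pluripotent stem cells are known for a high rate of glycolysis, and many cells move towards mitochondrial oxidation as they differentiate.

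RNA of H9 human embryonic stem cells was measured on 12 Illumina bead arrays in 6 groups of 2, which the series text calls biological duplicates. In the overexpression arm, H9 cells that express LHX2, a LIM-homeodomain protein of the forming eye and forebrain, from a doxycycline-inducible construct were left without the drug (dox-minus) or received it for 3 days (dox-plus), and both were collected at day 4 and at day 16, that is 1 and 13 days after the drug. In the knockdown arm, a hairpin RNA targeting LHX2 (shLHX2) was compared with one targeting luciferase (shLuc) in H9 cells, both after 12 days of neural induction. A GFP control of this design is named in the series text, while these arrays are labelled as LHX2 cells only. Both dox groups therefore carry the LHX2 construct, and effects of the drug and of LHX2 cannot be told apart. The normalized log2 signal of LHX2, from 1 probe, was 5.23 and 4.87 in dox-minus and 6.04 and 5.45 in dox-plus cells at day 4, where it was detected on 1 of 4 arrays, a dox-plus one. At day 16 it was 12.18 and 11.91 against 12.78 and 13.03. In the knockdown arm it was 7.34 and 8.08 in shLHX2 and 9.76 and 9.72 in shLuc cells. The knockdown passed the test used below (limma adjusted p = 0.00582), and the dox differences at day 4 and day 16 did not (limma adjusted p = 0.273 and 0.0573).

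The arrays detected 19050 to 20489 probes each, and each member probe was read from 8 to 42 beads per array. Precision is limited by the number of arrays, 2 in each group. All 10 pluripotency markers were detected on both arrays of every group, except TDGF1 on 1 of 2 arrays of dox-plus cells at day 16. Replicates lay farther apart in dox-plus cells at day 4 and in dox-minus cells at day 16 than elsewhere. There, 10 and 11 of 32 members differed by more than 0.5 on the log2 scale between the 2 arrays (29.1% and 31.1% of all genes), against 3 to 5 members in the other groups. The widest gaps were those of ENO2, 8.92 and 10.75 in dox-plus cells at day 4, and P4HA1, 9.05 and 10.56 in dox-minus cells at day 16. Results that depend on 1 array are given without it. Values below are normalized log2 signals per array, replicate 1 first, differences carry the standard error (SE) of a limma fit to all 12 arrays, and adjusted p-values are Benjamini-Hochberg values over every gene tested.

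The promoters of the members show where the DNA element of the HIF factors could lie. Its core is ACGTG or GCGTG, searched on both strands of windows from 250 bases before to 50 after each annotated start in RefSeq (GRCh38.p14). The palindrome CACGTG holds ACGTG on both strands and counts as 2 matches. Of the members, 30 have an entry (not SLC2A3, NDRG1, BNIP3L and VEGFA), with 55 windows, and 37 of these windows (67.3%) held at least 1 match, against 48.4% of 35116 windows of all genes and 54.7% of those of protein-coding genes. ACGTG alone stood in 40.0% of members' windows and in 21.4% of all windows. A match of 5 letters is a description of the sequence and not a bound site, and the members were picked partly as known targets of these factors. The 250 bases before the outermost start follow for ADM, ALDOA, ANKRD37 and PFKFB3, because these 4 were lower in dox-plus cells at day 16 and have a window at that start. P4HA2 and PFKP were lower too, but their windows lie at other starts and are not shown. The 1 window of P4HA2 held 0 matches, and 2 of the 4 windows of PFKP held a match. LDHA and BNIP3 are shown beside them because they hold 5 and 6 matches and did not pass the test there. Sequences run 5′ to 3′ on the strand of the gene, and capitals mark the matched letters, written as CACGT or CACGC where the match is on the other strand.

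ADM, chr11:10304823-10305072, plus strand: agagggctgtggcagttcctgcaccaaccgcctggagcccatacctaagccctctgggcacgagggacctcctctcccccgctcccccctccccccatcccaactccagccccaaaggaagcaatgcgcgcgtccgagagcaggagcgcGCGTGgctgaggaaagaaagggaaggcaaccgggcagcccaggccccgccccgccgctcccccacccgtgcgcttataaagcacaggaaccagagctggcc
ALDOA, chr16:30064029-30064278, plus strand: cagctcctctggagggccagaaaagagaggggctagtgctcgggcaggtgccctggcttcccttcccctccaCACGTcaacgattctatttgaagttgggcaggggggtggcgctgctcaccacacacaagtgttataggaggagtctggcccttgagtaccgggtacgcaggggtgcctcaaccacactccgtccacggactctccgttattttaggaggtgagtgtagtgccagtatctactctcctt
ANKRD37, chr4:185396591-185396840, plus strand: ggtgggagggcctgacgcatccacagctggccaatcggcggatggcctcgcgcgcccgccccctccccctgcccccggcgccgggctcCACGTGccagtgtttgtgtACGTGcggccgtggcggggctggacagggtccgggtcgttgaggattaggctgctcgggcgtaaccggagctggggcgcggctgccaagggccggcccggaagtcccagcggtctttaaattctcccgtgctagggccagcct
PFKFB3, chr10:6144671-6144920, plus strand: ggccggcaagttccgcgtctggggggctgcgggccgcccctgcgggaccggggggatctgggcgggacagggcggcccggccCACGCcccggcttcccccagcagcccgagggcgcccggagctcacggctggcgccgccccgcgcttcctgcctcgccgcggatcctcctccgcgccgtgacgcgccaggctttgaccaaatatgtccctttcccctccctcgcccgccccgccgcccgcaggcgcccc
LDHA, chr11:18394313-18394562, plus strand: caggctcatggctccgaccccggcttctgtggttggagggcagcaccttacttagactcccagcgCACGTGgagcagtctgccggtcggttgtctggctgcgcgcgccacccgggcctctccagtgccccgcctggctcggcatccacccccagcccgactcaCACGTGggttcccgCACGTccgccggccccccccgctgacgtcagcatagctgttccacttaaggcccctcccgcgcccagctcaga
BNIP3, chr10:131981924-131982173, minus strand: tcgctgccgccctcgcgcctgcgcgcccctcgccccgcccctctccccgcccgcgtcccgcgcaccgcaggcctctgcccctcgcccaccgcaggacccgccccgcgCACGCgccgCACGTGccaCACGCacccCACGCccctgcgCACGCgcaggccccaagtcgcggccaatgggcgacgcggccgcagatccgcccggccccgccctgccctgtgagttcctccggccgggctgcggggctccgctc

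In ANKRD37 the matches lie 162, 161 and 143 bases before the start, as 1 palindrome and 1 further ACGTG. LDHA has a pair of palindromes and 1 further match. In the windows shown, ADM and PFKFB3 hold 1 GCGTG each, at 101 and 168 bases before the start, and ALDOA holds 1 ACGTG at 178 bases. Windows at other starts hold a palindrome in PFKFB3, a palindrome and a further ACGTG in ALDOA, and 1 GCGTG in LDHA. Among members with an entry, 5 of the 6 that were lower at day 16 and 22 of the other 24 held a match in at least 1 window. The same held for 14318 of 27305 genes and for 9804 of 15843 protein-coding genes. The members have more windows per gene (55 for 30 genes against 35116 for 27305), which by itself makes a match in at least 1 more likely.

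**Figure D1:**
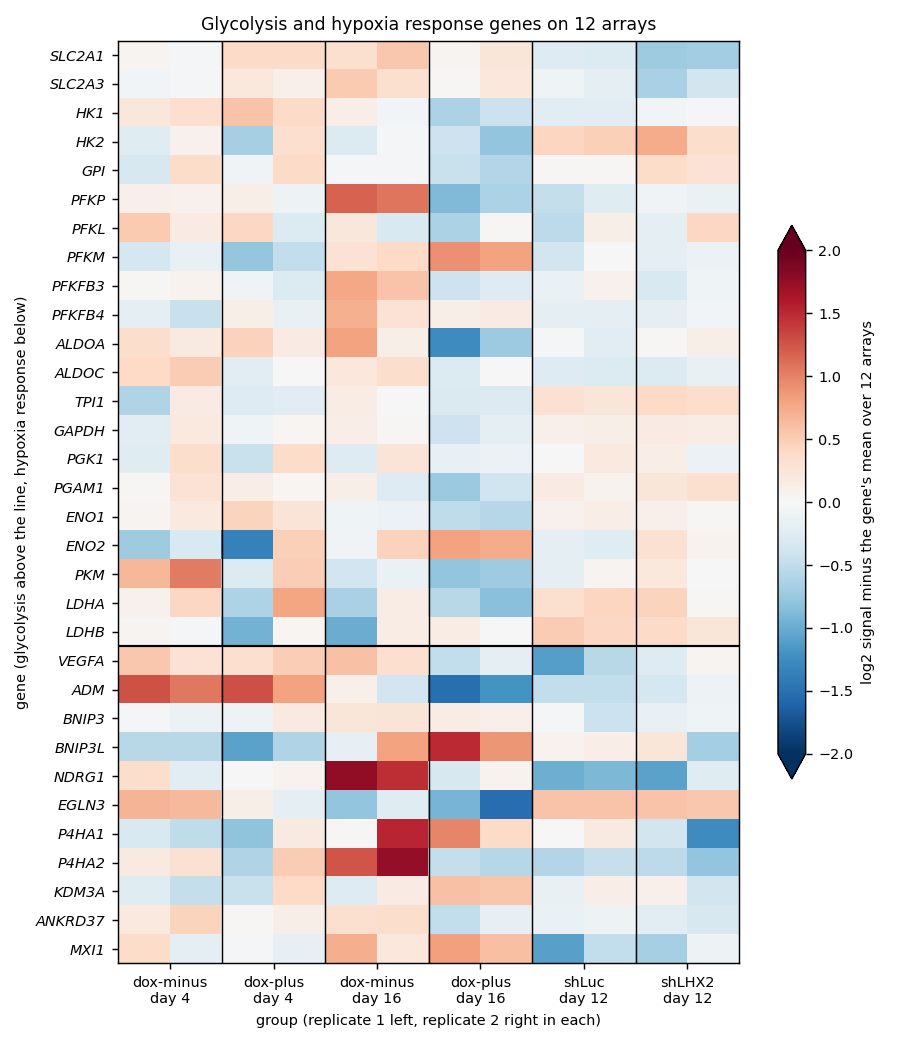
Normalized log2 signal of the 32 tested members (rows) on the 12 arrays (columns, replicate 1 left in each group), each row minus its own mean, with blue for lower and red for higher. The 2 dox-minus arrays of day 16 are the reddest for PFKP, NDRG1 and P4HA2, and the 2 dox-plus arrays of day 16 are the bluest for ALDOA and ADM.

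The first comparison asks how cells that had received doxycycline differed from those that had not, 1 day after the drug. At day 4, 0 of 32 members passed the test (limma, adjusted p under 0.05), where 1.94% of all genes did. At an unadjusted p under 0.05 there were 3 members, ALDOC, PKM and EGLN3, against 13.9% of all genes. Their differences ran from -0.74 to 0.37. The median of the members was -0.08 and turned to 0.03 under median scaling, to 0.13 with the unnormalized values of the deposited series table and to 0.04 without replicate 1 of the dox-plus cells. Those other scalings moved the median of all genes at day 4 from -0.01 to 0.15 and 0.23.

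The 3 members with the largest differences at day 4 were all lower on both dox-plus arrays. PKM, pyruvate kinase of the last step of glycolysis, read 11.78 and 12.16 in dox-minus and 10.85 and 11.60 in dox-plus cells. EGLN3, the HIF prolyl hydroxylase that is itself induced by HIF, read 7.40 and 7.36 against 6.84 and 6.52. ALDOC, the brain-type aldolase, read 10.55 and 10.65 against 9.92 and 10.15. None of these pairs of groups overlapped, as was the case for 12 of 32 members and 40.2% of all genes. The differences were -0.74 ± 0.25 (SE) for PKM, -0.70 ± 0.24 for EGLN3 and -0.56 ± 0.18 for ALDOC, with limma adjusted p-values of 0.189, 0.193 and 0.169.

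At day 16, 13 days after the drug, 8 members were lower in dox-plus cells and 0 were higher. They were P4HA2, PFKP, NDRG1, ALDOA, ADM, PFKFB3, VEGFA and ANKRD37, with falls between 1.58-fold and 4.10-fold. Of all genes, 13.7% passed in this comparison, 7.63% as lower and 6.08% as higher. Among the enzymes and transporters of glycolysis 3 of 21 tested members passed, and among the hypoxia response genes 5 of 11. The median over the 32 members was -0.43, where that of all genes was 0.02. The 2 groups did not overlap for 26 members, 22 of them lower and 4 higher in dox-plus cells, against 53.8% of all genes, 26.6% lower and 27.2% higher.

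**Figure D2:**
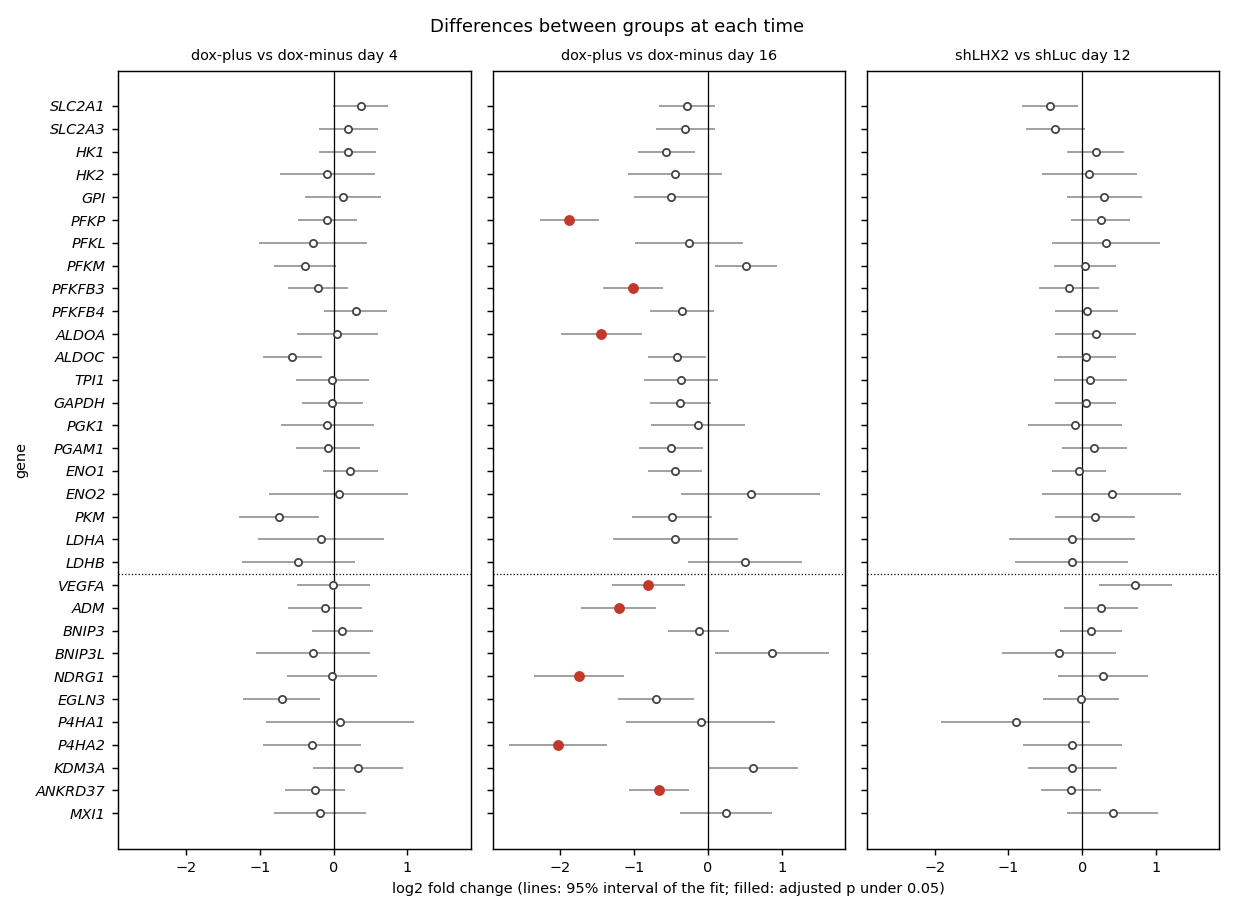
Log2 fold change of each tested member (points) with the 95% interval of the fit (lines) for dox-plus against dox-minus cells at day 4 and day 16 and for shLHX2 against shLuc cells, with filled points at an adjusted p under 0.05 and a dotted line between glycolysis members above and hypoxia response members below. Filled points appear at day 16 alone, 8 of them, all left of 0.

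The phosphofructokinase step, which commits sugar to glycolysis, held 2 of the 3 glycolysis members that fell. PFKP, the platelet-type phosphofructokinase, read 11.36 and 11.33 in dox-minus and 11.37 and 11.14 in dox-plus cells at day 4, and 12.43 and 12.31 against 10.36 and 10.62 at day 16. Its dox-minus arrays of day 16 were the highest of the 12 and its dox-plus arrays of day 16 the lowest. The difference at day 16 was -1.88 ± 0.18 (SE; limma adjusted p = 3.97e-05), a 3.69-fold fall.

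PFKFB3, which makes the fructose-2,6-bisphosphate that activates phosphofructokinase, read 10.05 and 10.11 against 9.97 and 9.77 at day 4, and 10.81 and 10.61 against 9.62 and 9.77 at day 16. Both of its kept probes were lower at day 16, and the difference was -1.01 ± 0.19 (SE; limma adjusted p = 0.0035). The related PFKFB4 read 9.89 and 9.48 in dox-minus and 9.31 and 9.35 in dox-plus cells, without overlap, but its difference of -0.35 ± 0.20 did not pass. Neither of the other phosphofructokinases passed. PFKM, the muscle type, stood at 10.40 and 10.52 in dox-minus and 11.03 and 10.92 in dox-plus cells, a difference of 0.52 ± 0.19 (limma adjusted p = 0.0995), and the groups of PFKL, the liver type, overlapped.

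ALDOA, the aldolase that splits the sugar into 2 triose phosphates, read 13.20 and 13.05 in dox-minus and 13.32 and 13.03 in dox-plus cells at day 4. At day 16 it read 13.66 and 12.98 against 11.61 and 12.14, so both dox-plus arrays lay below every other array. The difference was -1.44 ± 0.25 (SE; limma adjusted p = 0.00264), and both kept probes passed.

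The remaining glycolysis members did not pass at day 16. HK1, the hexokinase that traps glucose, came closest, with 13.23 and 13.05 in dox-minus and 12.47 and 12.68 in dox-plus cells (-0.56 ± 0.18; limma adjusted p = 0.055). ENO1 and PGAM1, the enolase and the mutase that precede pyruvate kinase, differed by -0.44 ± 0.17 and -0.50 ± 0.20, with groups that did not overlap. The glucose transporters SLC2A1 and SLC2A3 differed by -0.28 ± 0.17 and -0.31 ± 0.18, HK2 by -0.45 ± 0.29, GPI by -0.50 ± 0.23, ALDOC by -0.42 ± 0.18, TPI1 by -0.36 ± 0.23, GAPDH by -0.37 ± 0.19 and PKM by -0.49 ± 0.25. All 8 had lower signals on both dox-plus arrays than on both dox-minus arrays. PGK1, LDHA and LDHB had overlapping groups, and the neuron-type enolase ENO2 was higher without overlap, by 0.58 ± 0.43, also short of the threshold.

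Among the hypoxia response members, P4HA2 showed the largest fall. It encodes a catalytic subunit of the enzyme that hydroxylates prolines of collagen, and read 8.72 and 8.85 in dox-minus and 7.93 and 9.05 in dox-plus cells at day 4, then 9.80 and 10.30 against 8.06 and 7.97 at day 16. The dox-minus arrays of day 16 stood above all others. The difference was -2.03 ± 0.31 (SE; limma adjusted p = 0.000975), and 3 of 3 kept probes passed, from -2.44 to -1.43. P4HA1, another catalytic subunit, had overlapping groups at day 16 (-0.10 ± 0.46), with the wide gap between its dox-minus arrays given above.

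NDRG1, a stress-induced protein of the N-myc downstream regulated family, read 8.83 and 8.25 in dox-minus and 8.49 and 8.55 in dox-plus cells at day 4. At day 16 it read 10.25 and 9.96 against 8.17 and 8.55. The dox-plus level at day 16 was within the range of both groups at day 4 on 1 array and below it on the other, and the dox-minus level was the highest of the study. The difference was -1.75 ± 0.28 (SE; limma adjusted p = 0.00149).

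The genes of 2 secreted factors also fell. ADM, which encodes the vasodilator peptide adrenomedullin, read 14.14 and 13.93 against 14.16 and 13.68 at day 4 and 12.97 and 12.50 against 11.37 and 11.68 at day 16. Its signal was lower at day 16 than at day 4 in both groups, and lowest in dox-plus cells. The difference at day 16 was -1.21 ± 0.23 (SE; limma adjusted p = 0.00439).

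VEGFA, the main growth factor of blood vessels, read 8.92 and 8.67 against 8.72 and 8.87 at day 4 and 8.98 and 8.72 against 7.89 and 8.19 at day 16. The day 16 groups did not overlap, and the difference was -0.81 ± 0.23 (SE; limma adjusted p = 0.0358), with both kept probes passing. ANKRD37, a small ankyrin repeat protein, read 7.01 and 7.27 against 6.84 and 6.94 at day 4 and 7.14 and 7.16 against 6.32 and 6.65 at day 16, a difference of -0.66 ± 0.19 (SE; limma adjusted p = 0.0344).

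The other hypoxia response members did not pass. EGLN3 differed by -0.70 ± 0.24 (limma adjusted p = 0.073). BNIP3L, a receptor for the removal of mitochondria, differed by 0.87 ± 0.35 and KDM3A, a histone demethylase, by 0.61 ± 0.28, and both were higher on both dox-plus arrays. BNIP3, a relative of BNIP3L, differed by -0.13 ± 0.19, and MXI1, an antagonist of MYC, by 0.25 ± 0.28.

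**Figure D3:**
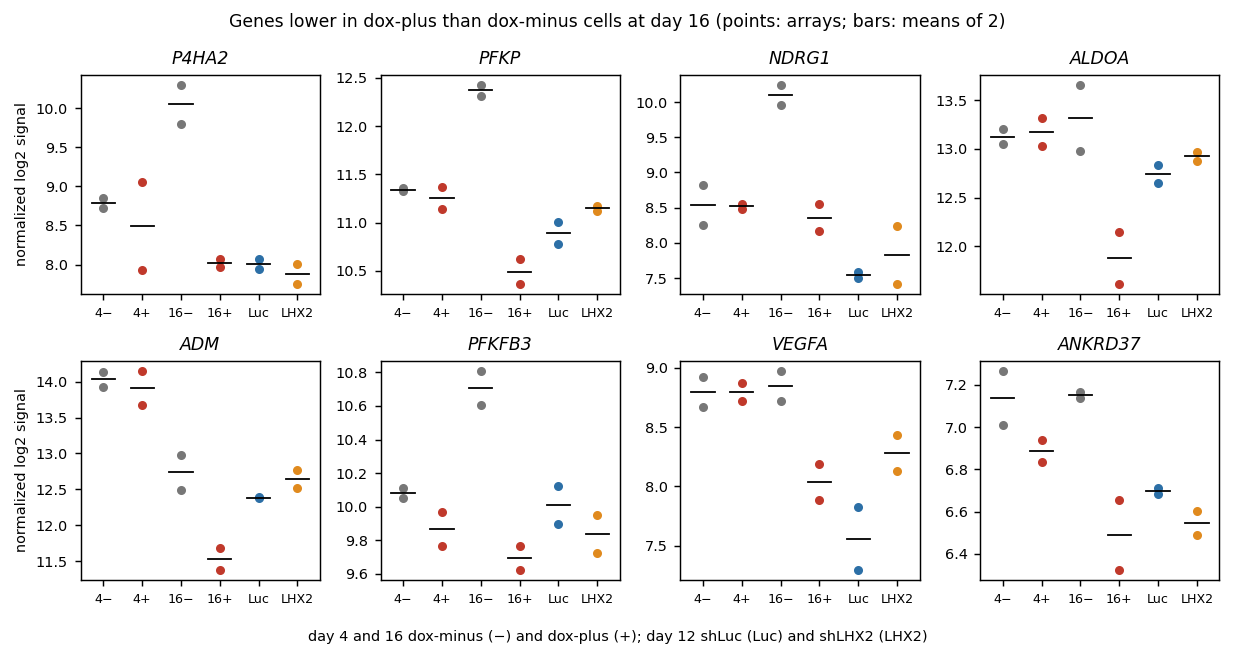
Normalized log2 signal of the 8 members that were lower in dox-plus cells at day 16 (1 panel each, with its own vertical axis), with points for arrays and bars for the mean of 2, by group (4 and 16 for the day, minus and plus for doxycycline, Luc and LHX2 for the hairpins at day 12). PFKP, NDRG1, P4HA2 and PFKFB3 peak in dox-minus cells at day 16, while ADM is highest in both groups of day 4.

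P4HA2, PFKP, NDRG1, ALDOA and PFKFB3 passed under each of the alternatives tried, and every array left out among them. Without replicate 1 of the dox-plus cells of day 16 the count was 5, since ADM (-1.06; limma adjusted p = 0.0588), VEGFA (-0.66; limma adjusted p = 0.256) and ANKRD37 (-0.50; limma adjusted p = 0.285) then missed. VEGFA also missed without replicate 1 of the dox-minus cells (-0.68) or replicate 2 of the dox-plus cells (-0.96), and ANKRD37 without replicate 1 (-0.67) or replicate 2 (-0.65) of the dox-minus cells. In all, VEGFA missed under 8 and ANKRD37 under 9 of 18 alternatives. With array weights, with only the groups compared in the fit, with the unnormalized values and where an absolute log2 change of at least 1 was required, both missed. VEGFA also missed without the detection filter (limma adjusted p = 0.0549), and ANKRD37 under median scaling (limma adjusted p = 0.0545) and without background correction (-0.42).

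Markers of cell types moved with these members at day 16. In dox-plus cells 10 of 12 mesenchyme and fibroblast markers were lower, with a summed linear signal of 8637 to 9645 against 37396 to 37609 in dox-minus cells, where 12 of 12 were detected. COL6A3, COL3A1 and PDGFRA differed by -4.28 ± 0.20, -4.00 ± 0.25 and -3.98 ± 0.23 on the log2 scale. In the other direction, 8 of 11 neural progenitor markers were higher, with a summed signal of 29902 to 30068 against 7997 to 9168, among them FABP7 at 3.80 ± 0.48 and HES5 at 2.97 ± 0.22. SOX1 was detected in neither group. POU3F2 was detected in dox-plus cells of day 16 and in no other group. It entered the tests through the group where it is high, so its direction was set by the filter. Of the endoderm markers 4 of 5 tested were lower (140 to 143 against 786 to 873), and 0 of 7 were detected in dox-plus cells. GATA4, GATA6 and TTR were detected in dox-minus cells of day 16 and in no other group. Those of them that were tested entered through that group, so their direction was set by the filter. Of the endothelium markers 2 of 3 were lower (583 to 627 against 1014 to 1180). Of the neuron markers 3 of 9 were higher and 1 lower, while their summed signal was lower (3355 to 3822 against 3988 to 4904). Of the pluripotency markers 2 of 10 were lower, while 7 of 10 had a positive difference. The summed pluripotency signal was higher in dox-plus cells (35108 to 39212 against 27294 to 31793). Of the red blood cell markers 0 of 1 changed, with 6 of 6 undetected. The part of all these markers in the fall of the members was not tested. In RNA from whole cultures, fewer cells of a type and less RNA per cell cannot be told apart.

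Other genes of the same pathways were examined at day 16 as well. Of 25 tested other glycolysis and glucose genes, 2 rose and 1 fell. The fall was that of SLC16A3, the exporter of lactate, at -2.50 ± 0.22 (SE), and the rises were those of the muscle enolase ENO3 (1.53 ± 0.20) and the glucose transporter SLC2A12 (0.74 ± 0.18). Of 10 regulators of the HIF pathway, ARNT2, a partner of the HIF alpha subunits, rose by 0.89 ± 0.24 and EGLN1, their main prolyl hydroxylase, fell by 1.19 with an SE of 0.27. Of 31 further hypoxia response genes, 8 fell and 2 rose. Among the falls were those of LOX, an enzyme that crosslinks collagen (-4.04 ± 0.29), the transcriptional repressor BHLHE40 (-2.14 ± 0.24) and the haem oxygenase HMOX1 (-2.14 ± 0.18). The secreted glycoprotein STC1 rose by 1.47 ± 0.24.

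The knockdown arm asks what a lower level of LHX2 does after 12 days of neural induction. Of the members 0 of 32 passed (limma, adjusted p under 0.05), where 0.543% of all genes did. At an unadjusted p under 0.05 there were 2, SLC2A1 and VEGFA, against 10.2% of all genes. The groups did not overlap for 15 members, 10 higher and 5 lower in shLHX2 cells, against 48% of all genes. The median of the members was 0.06 and turned to -0.08 under median scaling and -0.16 with the unnormalized values, which put the median of all genes at -0.13 and -0.18.

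The largest differences in the knockdown arm were those of P4HA1, VEGFA and SLC2A1. P4HA1 read 8.66 and 7.77 in shLHX2 and 9.02 and 9.21 in shLuc cells. VEGFA read 8.13 and 8.44 against 7.29 and 7.83, so both knockdown arrays lay above both controls. SLC2A1, a glucose transporter found in most cells, read 11.48 and 11.49 against 11.92 and 11.91, a small shift between replicates that were almost equal. The differences were -0.90 ± 0.46 (SE) for P4HA1, 0.72 ± 0.23 for VEGFA and -0.44 ± 0.17 for SLC2A1, with limma adjusted p-values of 0.556, 0.248 and 0.396.

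The 8 members that were lower in dox-plus cells at day 16 differed in the knockdown arm by between -0.17 and 0.72. PFKP, ALDOA, ADM and VEGFA were higher on both shLHX2 arrays, ANKRD37 was lower on both, and the groups of P4HA2, NDRG1 and PFKFB3 overlapped. Groups that did not overlap were seen for 48% of all genes here, and none of the 8 differences passed the test. The intervals of the fit bound these differences at 1.22 for VEGFA, at 0.65 for PFKP and at -0.80 for P4HA2. Of the other pathway lists, 0 of 25 glycolysis and glucose genes and 0 of 10 HIF regulators passed (limma), with 2 and 1 at an unadjusted p under 0.05. Of 31 further hypoxia response genes 1 did, the membrane protein TMEM45A at -0.94 ± 0.17. Of the marker lists, 1 of 12 mesenchyme markers was higher, and 1 of 11 neural progenitor, 1 of 3 endothelium and 1 of 5 endoderm markers were lower. Of the pluripotency, neuron and red blood cell markers 0 passed (limma), with 0, 4 and 0 at an unadjusted p under 0.05.

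The time course asks which members changed between day 4 and day 16 in cells never given doxycycline. In dox-minus cells 5 members rose and 3 fell, where 18.1% of all genes changed, 9.71% upward and 8.35% downward. NDRG1 rose by 1.57 ± 0.28 (SE), P4HA2 by 1.27 ± 0.31, PFKP by 1.03 ± 0.18, PFKFB4 by 0.81 ± 0.20 and PFKFB3 by 0.63 ± 0.19. ADM, EGLN3 and PKM had differences of -1.30 ± 0.23, -1.19 ± 0.24 and -1.11 ± 0.25. The limma adjusted p-values of these 8 lay between 0.00201 for ADM and 0.0359 for PFKFB3, and the median over the 32 members was 0.14.

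Those dox-minus changes can be read on single arrays for the members not yet shown. PFKFB4, which like PFKFB3 sets the level of fructose-2,6-bisphosphate, went from 9.0 and 8.74 at day 4 to 9.89 and 9.48 at day 16. EGLN3 went from 7.40 and 7.36 to 5.92 and 6.47, and PKM from 11.78 and 12.16 to 10.73 and 10.98. In none of the 3 did the arrays of the days overlap, as was the case for 18 of 32 members and 8288 of 15650 genes. Of the kept PKM probes 3 of 3 fell, while the second kept PFKFB3 probe did not pass (0.25 ± 0.26). Without replicate 2 of the dox-minus cells of day 4 the count was 4. PKM (-0.92), PFKFB4 (0.69), P4HA2 (1.33) and PFKFB3 (0.65) then missed. Without replicate 1 of that group P4HA2 (1.21) and PFKFB3 (0.60) missed, without replicate 1 of the dox-minus cells of day 16 PFKFB4 (0.60) and PFKFB3 (0.52), and without replicate 2 of it P4HA2 (1.02). With only the groups compared in the fit PFKFB4 and PFKFB3 missed (limma adjusted p = 0.0689 and 0.14), PFKFB3 also under median scaling, array weights and the mean of its probes.

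In dox-plus cells 4 members rose and 10 fell over the same days (2 and 12 under median scaling), where 36.6% of all genes changed, 17.8% upward and 18.9% downward. BNIP3L rose by 2.03 ± 0.35 (SE), PFKM by 1.50 ± 0.19, ENO2 by 1.21 ± 0.43 and MXI1 by 0.81 ± 0.28. The falls were led by ADM (-2.40 ± 0.23), ALDOA (-1.30 ± 0.25), EGLN3 (-1.19 ± 0.24) and HK1 (-1.01 ± 0.18). EGLN3 was detected on 1 of 2 dox-plus arrays of day 16, and its change was -0.61 without background correction (limma adjusted p = 0.00765). The falls went on with ENO1 (-0.89 ± 0.17), PKM (-0.86 ± 0.25), PFKP (-0.77 ± 0.18), VEGFA (-0.76 ± 0.23), GPI (-0.67 ± 0.23) and PGAM1 (-0.65 ± 0.20). The limma adjusted p-values ran from 1.21e-05 for ADM to 0.0455 for ENO2, and the median over the members was -0.26. The 2 time comparisons share no array, while each shares its day 16 arrays with the comparison at day 16.

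BNIP3L went from 7.83 and 8.29 in dox-plus cells at day 4 to 10.39 and 9.78 at day 16. In dox-minus cells it went from 8.34 and 8.34 to 8.73 and 9.70, a difference of 0.88 ± 0.35 that did not pass. Its second kept probe did pass there, at 0.95 ± 0.27 (limma adjusted p = 0.0308 with every probe tested). PFKM went from 9.34 and 9.61 to 11.03 and 10.92 in dox-plus cells, and from 9.76 and 9.97 to 10.40 and 10.52 in dox-minus cells, where the rise of 0.60 ± 0.19 had a limma adjusted p of 0.0524. Both genes had day 16 arrays above all day 4 arrays in each arm. In dox-plus cells the days did not overlap, in either direction, for 21 of 32 members and 10484 of 15650 genes.

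HK1 went from 13.68 and 13.49 to 12.47 and 12.68 in dox-plus cells, while its second kept probe did not pass (-0.59 ± 0.27). ENO1 went from 14.91 and 14.73 to 13.95 and 13.90, and EGLN3 from 6.84 and 6.52 to 5.78 and 5.20. In each of these the day 16 arrays lay below the day 4 arrays by more than the gap between replicates. ENO2 went from 8.92 and 10.75 to 11.08 and 11.02, so its change depends on which day 4 array is taken, being 0.30 (limma adjusted p = 0.466) without replicate 1 of that group and 2.13 without replicate 2.

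**Figure D4:**
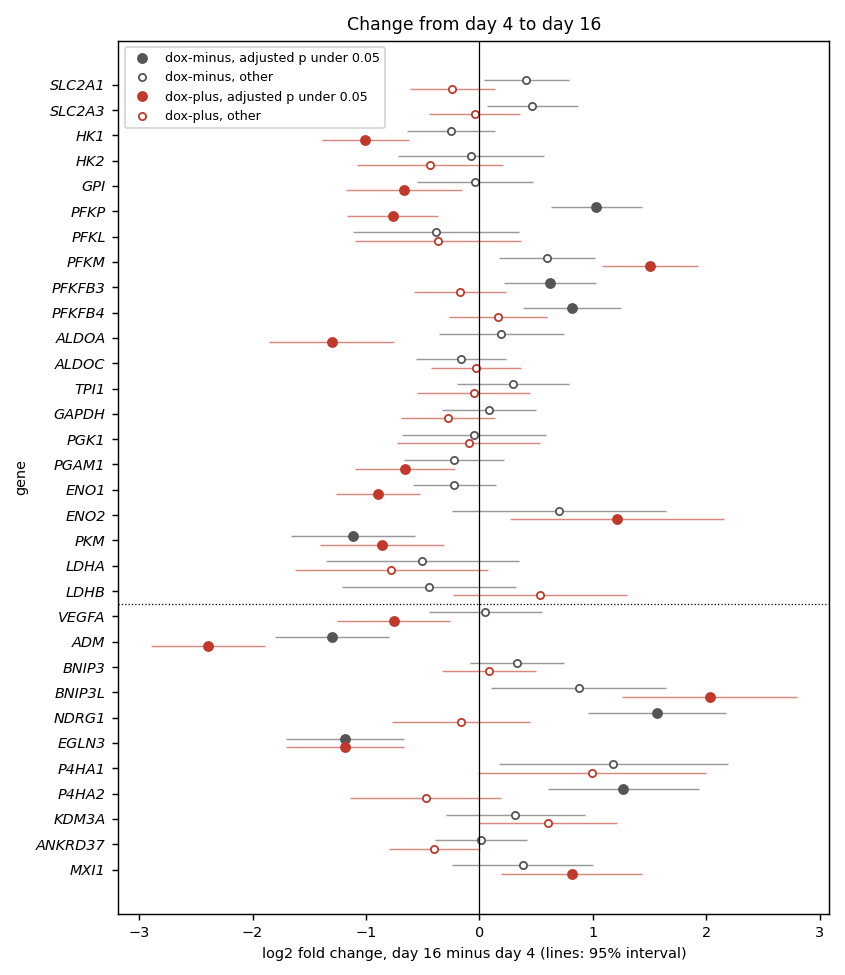
Log2 change from day 4 to day 16 of each tested member in dox-minus (grey) and dox-plus cells (red), with the 95% interval of the fit as lines, filled points at an adjusted p under 0.05 and a dotted line between glycolysis members above and hypoxia response members below. PFKP and NDRG1 lie right of 0 in dox-minus cells and left of it in dox-plus cells, and ADM and EGLN3 lie left of 0 in both.

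The dox-plus time comparison also leaned on single arrays. Without replicate 1 of the dox-plus cells of day 16 the count was 7, and GPI (-0.73), PFKP (-0.64), PGAM1 (-0.48), ENO2 (1.18), PKM (-0.82), VEGFA (-0.61) and MXI1 (0.70) missed. Without replicate 2 of that group GPI (-0.60), ENO2 (1.24), PKM (-0.90) and MXI1 (0.93) missed. Without replicate 1 of the dox-plus cells of day 4 PFKP (-0.65), PGAM1 (-0.61), ENO2 (0.30), VEGFA (-0.83) and MXI1 (0.87) missed, and without replicate 2 GPI (-0.44), PKM (-0.48), VEGFA (-0.68) and MXI1 (0.75). With only the groups compared in the fit GPI, PGAM1 and ENO2 missed, with array weights GPI, VEGFA and MXI1, without the detection filter GPI, ENO2 and MXI1, under median scaling and with the unnormalized values ENO2 and MXI1, and under cyclic loess GPI. Probes of 1 gene did not always concur. A second PGK1 probe, for the phosphoglycerate kinase that makes ATP, passed over time in both arms (-0.74 ± 0.23 in dox-minus and -0.90 ± 0.23 in dox-plus cells), while the probe used did not (-0.05 and -0.10). A second HK2 probe passed in dox-plus cells (-0.76 ± 0.21) and a further MXI1 probe passed in both arms (1.29 ± 0.37 and 1.73 ± 0.37). Another P4HA2 probe passed in dox-plus cells (-0.78 ± 0.21) and the second BNIP3L probe in dox-minus cells. Other probes of called members missed, for HK1 and MXI1 (0.32 ± 0.22) in dox-plus cells and for PFKFB3 in dox-minus cells.

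Over time, the other glycolysis and glucose genes split evenly in dox-minus cells, with 3 up and 3 down of 25. SLC16A3 rose by 1.47 ± 0.22 and ENO3 by 1.05 ± 0.20, while FBP1, an enzyme of glucose synthesis, the kinase PDK3 and SLC2A12 stood at -1.42 ± 0.23, -1.03 ± 0.19 and -0.92 ± 0.18. In dox-plus cells 5 rose and 4 fell. There ENO3 rose by 2.42 ± 0.20, the muscle mutase PGAM2 by 1.66 ± 0.21 and the bisphosphoglycerate mutase BPGM by 1.28 ± 0.39. SLC2A12 rose by 1.03 ± 0.18 and G6PC3, a glucose-6-phosphatase, stood at -1.07 ± 0.24. At day 4, PDK3 and SLC2A12 were lower in dox-plus cells, at -1.13 ± 0.19 and -1.21 ± 0.18, and 0 of the other 23 genes of that list passed.

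EPAS1, which encodes HIF-2α, rose with time in both arms, by 3.07 ± 0.30 in dox-minus and 2.54 ± 0.30 in dox-plus cells. CITED2, a competitor of the HIF factors for their coactivator, rose by 1.01 ± 0.27 and 1.40 ± 0.27, and ARNT2 rose by 1.97 ± 0.24 in dox-plus cells. Of the 10 regulators these alone passed over time. At day 4, 0 of the 10 passed between the dox groups (limma), with 1 at an unadjusted p under 0.05. Of 31 further hypoxia response genes 9 rose and 3 fell in dox-minus cells, with ANGPTL4, a regulator of lipoprotein lipase, at 2.08 ± 0.28, DDIT4, an inhibitor of mTOR, at 1.49 ± 0.21, the adenylate kinase AK4 at -1.48 ± 0.21, LOX at 1.18 ± 0.29 and WSB1 at 1.16 ± 0.21. In dox-plus cells 4 rose and 8 fell, among them AK4 at -2.41 ± 0.21, LOX at -2.14 ± 0.29, HMOX1 at -1.98 ± 0.18 and BHLHE40 at -1.31 ± 0.24. At day 4, 0 of these 31 passed (limma), with 6 at an unadjusted p under 0.05.

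The marker lists moved over time as well. In dox-minus cells 11 of 12 mesenchyme markers rose and 1 fell, 6 of 11 neural progenitor markers rose and 1 fell, and 7 of 10 pluripotency markers fell. Of the neuron markers 1 rose and 3 fell, of the endoderm markers 4 rose and 1 fell, of the endothelium markers 1 rose, and the 1 tested red blood cell marker fell. In dox-plus cells 8 mesenchyme markers rose and 2 fell, 9 neural progenitor markers rose and 1 fell, and 2 pluripotency markers rose and 6 fell. There 4 neuron markers rose and 3 fell, 3 endoderm markers fell, 1 endothelium marker rose and 2 fell, and the red blood cell marker fell. At day 4, 1 mesenchyme marker was lower in dox-plus cells, 1 endothelium marker was higher and 1 lower, and 0 markers of the pluripotency, neural progenitor, neuron, endoderm and red blood cell lists passed (limma), with 0, 2, 3, 1 and 0 at an unadjusted p under 0.05. The filter likewise set the direction over time of POU3F2 in dox-plus cells. In dox-minus cells it set that of the tested among GATA4, GATA6 and TTR. The part of the markers in the changes of the members was not tested.

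The last comparison asks whether the difference between dox-plus and dox-minus cells changed from day 4 to day 16, which is the same quantity as the difference between the time changes of the 2 arms. It passed for 4 members, all towards lower values in dox-plus cells at day 16, where 7.83% of all genes passed, 4.67% in that direction and 3.16% in the other. PFKP, which rose with time in dox-minus and fell in dox-plus cells, had a difference of -1.80 ± 0.26 (SE; limma adjusted p = 0.00138). P4HA2 had -1.74 ± 0.43 (limma adjusted p = 0.0299), NDRG1 -1.73 ± 0.40 (limma adjusted p = 0.0208) and ALDOA -1.49 ± 0.36 (limma adjusted p = 0.0251). The per-array signals of all 4 are given above. At day 4 their groups overlapped and at day 16 they did not.

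The other 4 members that were lower at day 16 had no passing test of this difference. ADM stood at -1.10 ± 0.33 (limma adjusted p = 0.0639), PFKFB3 at -0.80 ± 0.26 (limma adjusted p = 0.0919), VEGFA at -0.81 ± 0.32 (limma adjusted p = 0.16) and ANKRD37 at -0.41 ± 0.26 (limma adjusted p = 0.378). In the opposite direction BNIP3L (1.15 ± 0.50), the lactate dehydrogenase LDHB (0.98 ± 0.50) and PFKM (0.91 ± 0.27) lay farthest out, and their limma adjusted p-values were 0.194, 0.264 and 0.0669. The median over the 32 members was -0.36.

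PFKP passed this test under every alternative tried. Without the detection filter ALDOA, NDRG1 and P4HA2 missed (limma adjusted p = 0.0531, 0.0521 and 0.0742), and with only the groups compared ALDOA and P4HA2 did. The others also rested on single arrays, and the count was 1 without replicate 2 of the dox-minus cells of day 4 or without replicate 1 of the dox-plus cells of day 16. It was 2 without replicate 1 of the dox-minus cells of day 4 or of day 16, 3 without replicate 1 of the dox-plus cells of day 4 or replicate 2 of those of day 16, and 7 without replicate 2 of the dox-plus cells of day 4 or of the dox-minus cells of day 16. Over these fits ALDOA ran from -1.84 to -1.15, NDRG1 from -2.02 to -1.44 and P4HA2 from -2.30 to -1.18.

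A difference of this kind also passed for 4 of 25 other glycolysis and glucose genes and 1 of 10 HIF regulators, against 7.83% of all genes. SLC16A3 stood at -2.35 ± 0.31, and SLC2A12, PDK3 and ENO3 at 1.95 ± 0.25, 1.62 ± 0.27 and 1.37 ± 0.28. ARNT2 stood at 1.59 ± 0.33. In the hypoxia response list 8 of 31 were towards lower and 1 towards higher values, among them LOX (-3.32 ± 0.41), HMOX1 (-2.84 ± 0.25), BHLHE40 (-2.44 ± 0.33) and ANGPTL4 (-1.66 ± 0.39). Of the markers, 7 of 12 mesenchyme, 3 of 5 endoderm, 2 of 3 endothelium and 1 of 10 pluripotency markers moved towards lower and 7 of 11 neural progenitor and 3 of 9 neuron markers towards higher values. Here too the filter set the directions of POU3F2 and of the tested among GATA4, GATA6 and TTR.

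Several members have near-identical relatives or processed pseudogenes in the genome, among them GAPDH, LDHA, PGK1, TPI1, ENO1, PKM and PGAM1, and SLC2A3 closely resembles SLC2A14. The probe sequences were not used here, so how much of such RNA these probes bind is uncertain. None of the probes of 1 gene that passed a test pointed the opposite way from another kept probe of that gene in the same comparison.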

How the data were processed

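Values are the authors' deposited bead intensities, 1 file per array, with a detection p-value per probe (per the file headers). They show no normalization between arrays, with medians from 73.1 to 89.2. Scanner software and any background step are not given in the sources used here. Per the labels' protocols, Qiagen RNeasy and Ambion MessageAmp kits gave the RNA and the biotin-labelled cRNA. The deposited series values equal the array files for 10 of 12 arrays and are exchanged between the 2 shLuc arrays, so the array files were used.

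Probes were named by Entrez identifier in RefSeq. Intensities were normexp-corrected and quantile normalized on the log2 scale (neqc of limma 3.58.1, R 4.3.3, offset 16). Of 47227 probes 21526 passed the detection filter, and the kept probe with the highest mean stood for its gene, so levels of different genes are not comparable. All 12 arrays entered 1 limma fit with 6 group means, leaving 6 residual degrees of freedom. The fit was also run on simulated data with the same spread in every group. That check does not cover the unequal replicate gaps described above. Alternatives changed scaling, background, offset, the filter, the choice of probe, the arrays in the fit and their weights, a replicate block and the thresholds, or left out an array. The 34 members, the lists of 37 other glycolysis and glucose genes, 10 HIF regulators, 33 further hypoxia response genes and 7 marker lists were chosen with earlier results of these data known. Named are all called members, up to 5 called genes of each other pathway list, and signals per array of the 8 largest called changes per comparison, or of the 3 largest where fewer than 3 members were called. Marker genes were named after their values were seen. A gene that the rule names is not reported here and stays in every test and count. Replicate numbers were not used as pairs: deviations of same-numbered arrays correlated at 0.33, -0.58 and 0.07 in the day 4, day 16 and knockdown comparisons.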

Additional observations from a re-analysis of the deposited data

Results flagged for a closer look

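The effect of doxycycline treatment differed between the days for 4 members, by the test of that difference itself in the fit. Dox effect at day 16 minus dox effect at day 4 was -1.80 for PFKP, -1.74 for P4HA2, -1.73 for NDRG1 and -1.49 for ALDOA on the log2 scale. PFKP and NDRG1 had differences of -0.09 and -0.02 at day 4, P4HA2 and ALDOA of -0.29 and 0.05. With 2 arrays a group, no single array could be tested as standing apart from its group.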

How the results depend on the processing

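Counts of called members at day 4 and in the knockdown arm were 0 under all 18 alternatives each. At day 16 the count of 8 ran from 6 to 11 under the other settings and from 5 to 9 with an array left out. Over time it ran from 4 to 8 in dox-minus and from 7 to 13 in dox-plus cells with an array left out, and was 7 in dox-plus cells when an absolute log2 change of at least 1 was also required, because that threshold is stricter. For the difference of the dox effects the count of 4 became 9 without background correction, 8 at an adjusted p under 0.10, 2 with only the groups compared in the fit and 1 without the detection filter, which tests more genes. It ran from 1 to 7 with an array left out. The cause of the change without background correction was not tested. With an array left out, the spread of the single array remaining is taken from the other groups. The replicate block left the counts at 0, 8, 0, 8, 14 and 4 and changed no call. It gives all dox arrays the same replicate term. Deviations of opposite sign, like those at day 16 (correlation -0.58), cannot be taken up by it. Replicate numbers were not taken as pairs, since not every pair correlated above 0.1. Whether same-numbered arrays belong together cannot be settled by these correlations. Of 34 called pairs of member and comparison, 16 passed under every alternative. Of 625 alternative values 533 kept the call, 92 fell short of it and 0 changed sign. EGLN3 over time was -0.74 in dox-minus and -0.61 in dox-plus cells without background correction, and MXI1 in dox-plus cells 0.48, and the cause was not tested. The share of higher among called genes went from 69.1% to 87.1% at day 4 under median scaling and 93.7% with the unnormalized values, from 45.9% to 28.6% and 16.3% in the knockdown arm, from 40.3% to 28.3% and 17% for the difference, and over time from 53.8% to 62% and 70.4% in dox-minus and from 48.5% to 38.9% and 32.1% in dox-plus cells. The share of promoter windows with a match was 58.2% in the 250 bases before the start and 40.0% for ACGTG alone.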
